A study of Mus musculus with 2 samples.

Results

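In gastrocnemius, a calf muscle made mostly of fast-twitch fibres, 105 genes gave reads from a pair of annotated transcripts that begin with different introns and end with the same one. They were found among 30248 genes with reads in either library. The members were chosen by their reads. The rule took every gene with 2 or more annotated spliced transcripts that each had 20 or more reads in each library, and 207 genes passed this step. Of each gene the 2 transcripts with the most summed reads formed the pair, and genes were kept where the first introns, read in the direction of transcription, differed and the last introns were equal. The pairs of the 102 genes left out differed in the last intron only (40 genes), in internal introns only (58 genes) or at both ends (4 genes). Because the reads of these transcripts chose the members, how a gene divided its reads within the pair is given below as a description without a test. Only the difference between the libraries, and the reads of other transcript models, were tested.

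The muscle came from male mice of the hybrid strain B6CASTF1/J aged 10 days, and total RNA (2 µg a library) was read as long reads in 2 libraries, replicates 1 and 2. The labels name a different male for each library but give both the same donor record. The tests below compare the reads of 1 library with those of the other, so their p-values do not measure the spread between animals. Both libraries belong to 1 group, with no treatment, genotype or control to compare. Replicate 1 held 1145490 mouse reads and replicate 2 held 941841, and the pairs described here took 69231 and 57710 of them. All 7 fibre markers (Acta1, Ckm, Myh1, Myh4, Tnnt3, Atp2a1 and Mylpf) were listed in both libraries and summed to 254736 and 242948 CPM (reads per 1000000 mouse reads). The summed level of 5 fibroblast markers was higher in replicate 1, and that of 4 globin genes in replicate 2 (833 against 397 CPM). In bulk tissue, fewer cells of a type and less RNA per cell cannot be told apart.

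A gene can begin its transcripts at more than one promoter, each with a first exon of its own that is spliced to shared exons. Splicing can also vary after a single start, when the first exon ends at another donor, or when the first intron ends at another acceptor. The first intron usually lies near the start codon, so the choice can change the amino end of the protein or only the untranslated leader. In muscle, the fast essential myosin light chain gene Myl1 and the calcineurin regulator gene Rcan1 are textbook cases in which separate promoters give separate proteins.

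The 105 pairs fell into 6 structures by the positions of their exons. In 27 genes the first exons did not overlap and each had its own first intron, called separate first exons here. In 28 genes, called late start, the transcript that began downstream had as its first intron a later intron of the other, again with first exons that did not overlap. In 18 genes the first exons overlapped and ended at different donors, in 14 the first introns shared the donor and differed in the acceptor, and in 8 the second exon itself differed. In the other 10 genes the first exon of one transcript ran through the first intron of the other and so retained it. The annotated starts of a pair lay a median of 249 nt apart. They were over 1000 nt apart in 37 genes and over 10000 nt apart in 15, and the widest gap was 66069 nt at Rcan1.

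**Figure D1:**
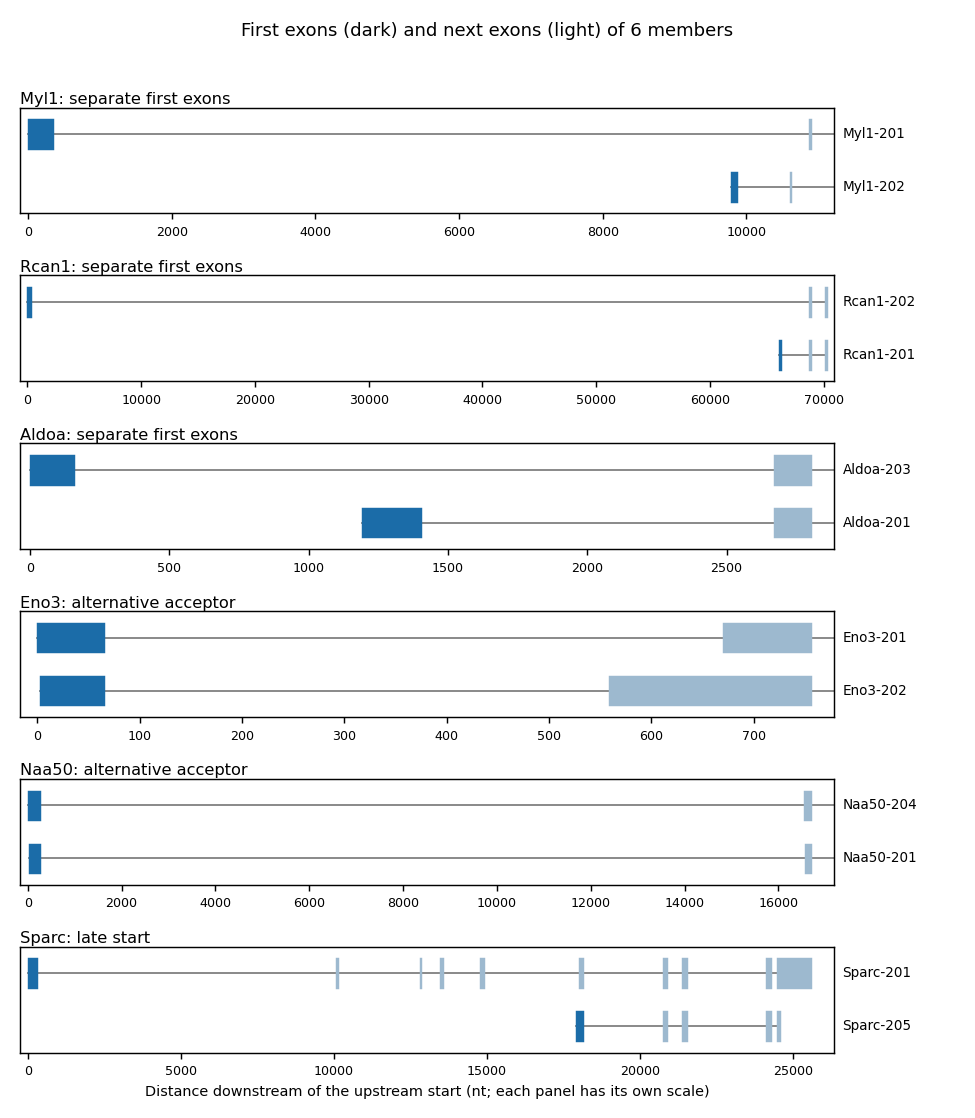
First exons (dark boxes) and the exons that follow (light boxes) of the pair in 6 genes, against the distance in nt downstream of the upstream start, with the upstream-start transcript above and a separate scale in each panel. In Myl1, Rcan1, Aldoa and Sparc the dark boxes do not overlap, while in Eno3 and Naa50 they do and the second exons begin at different places.

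The promoters of genes with separate first exons show how unlike a pair of starts in 1 gene can be. Sequences before the start were taken from RefSeq (GRCm38.p6, the same build as mm10), which held a start within 50 nt of 108 of the 210 annotated starts. The 250 bases before both starts of Rcan1 are printed because its share differed most between the libraries. Capitals mark the letters GGAAA or their reverse complement TTTCC, the core that NFAT factors recognise. The upstream window is chr16:92466170-92466419, minus strand, and the downstream window is chr16:92400079-92400328, minus strand.
Rcan1-202: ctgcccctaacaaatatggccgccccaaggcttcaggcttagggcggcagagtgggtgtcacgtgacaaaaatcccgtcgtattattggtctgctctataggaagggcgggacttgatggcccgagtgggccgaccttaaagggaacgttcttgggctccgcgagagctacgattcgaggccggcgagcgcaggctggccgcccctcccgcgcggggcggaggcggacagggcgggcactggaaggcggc
Rcan1-201: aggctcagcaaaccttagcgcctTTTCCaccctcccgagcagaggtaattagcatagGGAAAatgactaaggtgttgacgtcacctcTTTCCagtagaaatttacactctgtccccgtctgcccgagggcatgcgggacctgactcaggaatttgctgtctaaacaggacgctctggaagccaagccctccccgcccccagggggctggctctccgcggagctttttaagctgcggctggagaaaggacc
The downstream window held 3 such matches and the upstream window none, with both strands searched. In the 250 bases before the start of 32851 RefSeq promoters, 55.6% held the core at least once and 6.39% held it 3 times or more. A match of these letters is a description of the sequence and not a binding site.

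CpG pairs, the CG dinucleotides that are dense in the promoters of many broadly expressed genes, differed widely between the starts of some genes and little in others. The median RefSeq promoter window held 7. Over the 12 genes whose separate first exons both matched a window, and different ones, the upstream window held a median of 20.5 CpG pairs and the downstream window a median of 15, and each side had the higher count in 6 genes. The counts were close at Maged2 (8 upstream and 9 downstream) and Ghitm (26 and 30). The genes that follow are among those with wide differences. At Acsl1, which encodes a long-chain acyl-CoA synthetase, the window of the upstream start held 30 and that of the downstream start 4. Cacnb1, the beta subunit gene of the muscle calcium channel, held 34 upstream and 3 downstream. The order was the other way round at Aldoa, which encodes the glycolytic enzyme aldolase A, with 0 upstream and 24 downstream, and at Sgk1, a serum- and glucocorticoid-regulated kinase gene, with 10 and 28. The last 100 bases before each of these starts follow, with the letters TATAAA in capitals where they occur. The stretches printed are parts of the counted windows. They are chr8:46470937-46471036, plus strand and 46490866-46490965 for Acsl1, and chr11:98022628-98022727, minus strand and 98018373-98018472 for Cacnb1. Those of Aldoa are chr7:126800448-126800547, minus strand and 126799255-126799354, and those of Sgk1 are chr10:21993790-21993889, plus strand and 21994566-21994665.
Acsl1-201: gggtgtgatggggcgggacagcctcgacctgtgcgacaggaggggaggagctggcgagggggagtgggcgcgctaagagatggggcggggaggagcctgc
Acsl1-203: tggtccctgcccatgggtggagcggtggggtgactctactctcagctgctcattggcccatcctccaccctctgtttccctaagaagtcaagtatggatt
Cacnb1-202: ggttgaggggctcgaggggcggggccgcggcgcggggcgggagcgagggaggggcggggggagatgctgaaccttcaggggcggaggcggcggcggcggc
Cacnb1-204: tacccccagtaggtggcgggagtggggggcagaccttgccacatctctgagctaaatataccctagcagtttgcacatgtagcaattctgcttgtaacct
Aldoa-203: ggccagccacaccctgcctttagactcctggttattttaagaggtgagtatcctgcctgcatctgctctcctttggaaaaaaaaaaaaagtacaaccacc
Aldoa-201: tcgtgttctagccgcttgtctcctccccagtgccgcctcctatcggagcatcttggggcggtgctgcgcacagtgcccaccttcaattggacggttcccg
Sgk1-202: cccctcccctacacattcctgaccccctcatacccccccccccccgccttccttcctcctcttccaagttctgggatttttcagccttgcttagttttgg
Sgk1-201: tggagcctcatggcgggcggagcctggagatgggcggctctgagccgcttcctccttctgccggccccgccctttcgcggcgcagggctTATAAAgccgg
Of these 8 starts the CpG-rich one held most of the pair's reads at Acsl1, Aldoa and Sgk1, and the CpG-poor one held slightly more than its partner at Cacnb1. The Aldoa pair took only 34.8% and 43.9% of the gene's reads in replicates 1 and 2. An unannotated first intron of Aldoa, described below, had more reads than either intron of the pair. Over all 12 genes the major start had the higher CpG count in 4 and the lower in 8. The letters TATAAA occur, on either strand, in 12.4% of all promoter windows.

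Among the genes with separate first exons, contractile and calcium-handling genes had the starts with the best known products. Myl1 (chr1:66924295-66945404, minus strand) begins Myl1-201, the longer light chain with a coding sequence of 564 nt, and, 9789 nt further on, Myl1-202, with 450 nt. Myl1-201 had 3784 and 2981 reads in replicates 1 and 2, and Myl1-202 had 6052 and 6953. The upstream start therefore held 38.5% of 9836 reads in replicate 1 (interval 37.5 to 39.4) and 30.0% of 9934 reads in replicate 2 (interval 29.1 to 30.9), where each interval is a 95% Wilson interval for counting error only. The downstream start led in both libraries. On the level scale Myl1-201 gave 3303 and 3165 CPM and Myl1-202 gave 5283 and 7382 CPM. The junctions of these first introns are shown because they mark the 2 products, with the first exon in lower case and the second in capitals.
Myl1-201: tctgctattaagATCGAGTTCTCT
Myl1-202: aactccatcatgTCCTTCAGTGCT

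Rcan1 (chr16:92391953-92470867, minus strand) encodes an inhibitor of calcineurin, the calcium-activated phosphatase that acts on NFAT. Its downstream start, that of Rcan1-201, is known as a target of calcineurin and NFAT. The reads of the upstream Rcan1-202 numbered 69 and 48 and those of Rcan1-201 numbered 85 and 249. The upstream share was 44.8% of 154 reads in replicate 1 (interval 37.2 to 52.7) and 16.2% of 297 reads in replicate 2 (interval 12.4 to 20.8). On the level scale the upstream transcript lay at 60.2 and 51.0 CPM and the downstream one at 74.2 and 264 CPM, a ratio of 3.56 for replicate 2 over replicate 1. The upstream levels were close to each other, and the downstream level was the high one in replicate 2. The coding sequences begin at different start codons and are 753 and 594 nt long.

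Cacnb1 was close to an even split, with 44.7% and 48.8% of pair reads from the upstream start in replicates 1 and 2. Acsl1 favoured its upstream start, 19929 nt before the other, at 74.9% and 69.1%, with the same coding sequence from both. Pkia, which encodes an inhibitor of protein kinase A, has starts 62388 nt apart and gave 31.2% and 30.9% to the upstream one, also with an unchanged coding sequence. At Ugp2, the gene of UDP-glucose pyrophosphorylase in glycogen synthesis, the upstream start held 27.7% and 30.3%. Myl12a, a regulatory light chain gene of non-muscle myosin, gave its upstream start 79.5% and 68.6%. It overlaps its close copy Myl12b on the same strand, so its levels are uncertain where reads could match either.

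Gsn and Aldoa were the most one-sided of the separate starts. Gsn, which encodes the actin-severing protein gelsolin, gave 3.17% and 4.04% of its pair to the start that lies 26000 nt upstream. Its downstream transcript has the longer coding sequence (2340 against 2193 nt). Aldoa gave 4.45% and 3.30% of its pair to its upstream start, while an unannotated first intron outside the pair had more reads than either. In contrast Eif5a, a translation factor gene, gave 95.6% and 96.2% and the X-linked gene Maged2 90.4% and 90.8% to the upstream start. Eif5a has processed copies elsewhere in the genome, so its level is uncertain. Across the 27 genes the mean upstream share ran from 3.61% to 95.9% with a median of 38.7%, and the upstream start was the major one in 12. The longest gaps between starts after Rcan1 and Pkia were those of Fam49b (62374 nt, upstream share 31.6% and 45.8%) and Agpat3 (54244 nt, 63.6% and 53.1%).

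**Figure D2:**
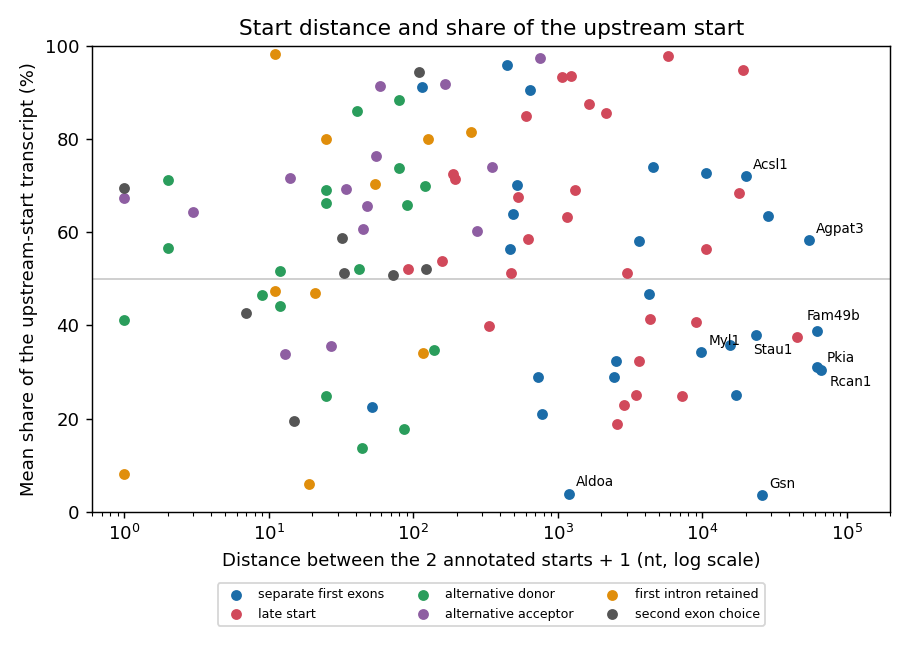
Mean share of the upstream-start transcript within the pair (vertical axis, %, 2 libraries) against the distance between the annotated starts plus 1 nt (horizontal axis, log scale), 1 point a gene, coloured by structure. Shares range widely for both close and distant starts, and the genes with starts over 10000 nt apart lie between 3.61% (Gsn) and 94.9% (Fh1).

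The 28 late-start genes included several of the most abundant members. A shortened read of the longer transcript would carry the same introns as the shorter one. The tables hold no read ends, and the part that such reads take in these shares was not tested. Myoz1 and Tpi1 gave almost all pair reads to the full-length transcript: Myoz1, which encodes a Z-disc protein that binds calcineurin, held 97.6% and 98.1%, and Tpi1, a glycolytic enzyme gene, held 93.3% and 93.6%. Pvalb, which encodes the calcium buffer of fast fibres, held 89.1% and 82.3% for Pvalb-202, whose start lies 2163 nt before that of Pvalb-201, with the same coding sequence. Cox4i1, a subunit gene of cytochrome c oxidase, gave 43.8% and 38.9% to the upstream transcript, so the downstream one had more reads in both libraries. The downstream transcript also led at Fxyd1, a regulator of the sodium pump (23.5% and 26.7% upstream), and at the ribosomal protein gene Rpl5 (34.0% and 30.6% upstream), whose processed copies make its level uncertain. Ank1, whose muscle transcripts encode a small ankyrin of the sarcoplasmic reticulum, gave 93.5% and 93.0% to the upstream start.

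Sparc (chr11:55394500-55423183, minus strand) encodes a collagen-binding matrix protein. Sparc-201 is the full coding transcript with 10 exons, and Sparc-205 begins 17915 nt downstream, has 5 exons and is annotated as a retained-intron transcript without a coding sequence. Sparc-201 had 827 and 563 reads and Sparc-205 had 263 and 361, so the upstream share was 75.9% of 1090 reads in replicate 1 (interval 73.2 to 78.3) and 60.9% of 924 reads in replicate 2 (interval 57.7 to 64.0). The level of the whole gene hardly differed (1598 and 1611 CPM), while the level of Sparc-205 was 229.6 and 383 CPM. The 5 fibroblast markers, all listed in both libraries, summed to 19650 CPM against 11850 CPM in the second library, and their part in this difference was not tested.

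In 12 genes only one transcript of the pair has an annotated coding sequence, and in all 12 it is the upstream one. The downstream partner is annotated as a retained-intron transcript in 9 and as a processed transcript in 3. In 4 of the 12 (Cox4i1, Fxyd1, Rpl5 and Stau1, which encodes an RNA-binding protein) the transcript without a coding sequence had more than 50% of the pair's reads in the mean of both libraries. Over all members, 65 pairs have the same coding sequence and differ in the leader, 17 begin translation at different start codons, 9 share the start codon but differ further on, and 2 have no coding sequence. In the 17 with different start codons the upstream transcript had the longer coding sequence in 8 and the downstream one in 9. Separate first exons made up 9 of the 17, and late starts made up 9 of the 12.

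Where the first exon was shared, a repeated pattern was an acceptor moved by 3 nt. This was seen in 8 members, 7 of the 14 with alternative acceptors and Pmp22, whose first exons are also separate. In 7 of them the 3 extra bases at the start of the second exon were CAG, and in Naa50 they were TAG, so the second acceptor follows an AG in each. The junctions below, named after they were seen to share this pattern, show each transcript with 12 bases of the first exon in lower case and 12 of the second in capitals.
Aamp-201: cgccggacccggATGATCTGGCCC
Aamp-202: cgccggacccggCAGATGATCTGG
Naa50-201: gaagatgaaaggCCGGATCGAGCT
Naa50-204: gaagatgaaaggTAGCCGGATCGA
Eif4a2-201: ggattacaacagAGAACATGGCGG
Eif4a2-203: ggattacaacagCAGAGAACATGG
Ptp4a1-205: agacatattcctTTCTGTGGTGTT
Ptp4a1-206: agacatattcctCAGTTCTGTGGT
Atg9a-201: actgagccccaaCTGTCCAACCAG
Atg9a-205: actgagccccaaCAGCTGTCCAAC
In 5 of the 8 (Aamp, Naa50, Eif4a2, Ptp4a1 and Nars) the annotated coding sequences of the pair differ by exactly 3 nt, and in the others they are the same. The mean share of the acceptor that lies first, which adds the bases, was 71.6% at Ptp4a1 (a tyrosine phosphatase) and 69.3% at Naa50 (an amino-terminal acetyltransferase). It was 60.7% at Nars (asparaginyl-tRNA synthetase) and 60.2% at the autophagy gene Atg9a. The second acceptor led at Eif4a2, an RNA helicase gene of translation, where the first had 26.0%, and at Aamp, where it had 8.65%. Neither the first nor the second acceptor led in all of these genes. At Pmp22 the share covers the start as well as the acceptor.

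Larger acceptor shifts were found in abundant muscle genes. Eno3 (chr11:70657202-70662513, plus strand), the muscle enolase gene, splices a shared first exon to a second exon that begins at either of 2 acceptors 112 nt apart, with the same coding sequence. Eno3-201 had 5283 and 5016 reads and Eno3-202 had 2907 and 2798, a share of 64.5% of 8190 reads in replicate 1 (interval 63.5 to 65.5) and 64.2% of 7814 reads in replicate 2 (interval 63.1 to 65.2). The libraries were nearly equal, with overlapping intervals. The junction sequences are these.
Eno3-201: aaggctttccagCCATGGCCATGC
Eno3-202: aaggctttccagCTCCAGCACCTG
Myot, which encodes the Z-disc protein myotilin, divided its reads in a like way, at 68.4% and 66.4% for Myot-201 with acceptors 122 nt apart. Cdkn1c, an imprinted cell-cycle inhibitor gene, held 74.9% and 77.7% for Cdkn1c-201, with a shift of 38 nt. H19, an imprinted long non-coding RNA, held 97.7% and 97.3% for H19-202, with a shift of only 4 nt.

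Among the 18 genes with alternative donors, the mean upstream share ran from 13.6% to 88.4%. Hadhb, a subunit gene of the mitochondrial trifunctional protein of fat oxidation, gave 69.2% and 63.3% to Hadhb-201. Atp5g3, which encodes the c subunit of ATP synthase, gave 72.9% and 69.5% to Atp5g3-201. Its paralogue Atp5g1 has separate first exons 51 nt apart and gave 22.7% and 22.4% to the upstream one. The genes nearest to an even split were Plpp1 (50.3% and 51.2%), Sirt2 (50.8% and 51.6%), Slc29a1 (55.6% and 46.8%), Nme2 (57.2% and 45.5%) and Ecsit (51.6% and 51.9%). In Plpp1 and Sirt2 the second exon itself differs. Srl, whose product sarcalumenin binds calcium in the sarcoplasmic reticulum, also chose between second exons. Its pair took only 26.2% and 20.1% of the gene's reads, and within the pair Srl-201 held 73.8% and 65.0%. An unannotated first intron with an acceptor 3 nt from that of Srl-202 had more reads than either and is described below.

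Of the 10 genes that retained the first intron, Cyc1, the cytochrome c1 gene, gave 98.0% and 98.5% to the spliced transcript, and Spop, an adaptor gene of a ubiquitin ligase, gave 7.29% and 4.80% to the transcript with the upstream start. At Uqcrq, a subunit gene of the same respiratory complex as Cyc1, the upstream transcript held 7.54% and 8.50%.

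Several families had more than 1 member, and these groups were formed after the values were seen. All 3 genes of the Ptp4a phosphatase family were members, and their structures differed. Ptp4a1 shifts its acceptor by 3 nt, while Ptp4a2 and Ptp4a3 have separate first exons. Ptp4a2 gave 67.8% and 60.0% of its pair to the upstream start and Ptp4a3, whose starts lie 23576 nt apart, gave 39.3% and 36.5%. The protein kinase A inhibitor genes Pkia and Pkig were both members: Pkig has alternative donors and gave 76.5% and 71.2% to Pkig-201, against the lower upstream share of Pkia given above. Respiratory chain and ATP synthase subunits made up 8 members, 6 of them with the same coding sequence from both transcripts. Besides those already described, Ndufs1 gave 63.3% and 68.6%, Ndufs8 83.9% and 88.1% and Cox6c 85.0% and 84.8% to the upstream transcript, so that the upstream transcript led in 5 of the 8. The ribosomal protein genes Rpl5, Rpl8, Rpl38, Rps14 and Rps27a were also members, and the upstream transcript led in 4 of these 5, with mean shares from 69.0% to 87.5%. Near-identical processed copies exist for such genes, and reads could be divided among them.

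Some further genes with separate first exons were chosen after their values were seen. Sgk1 gave 20.5% and 21.5% of its pair to the upstream start in replicates 1 and 2. Nfe2l1, a transcription factor gene of the proteasome response, was at 62.1% and 50.8%, and Stat5b, which carries growth hormone signals, at 60.7% and 66.2% with starts 28196 nt apart. Their start choice leaves the coding sequence as it is in Nfe2l1 and Stat5b, and changes the start codon in Sgk1.

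**Figure D3:**
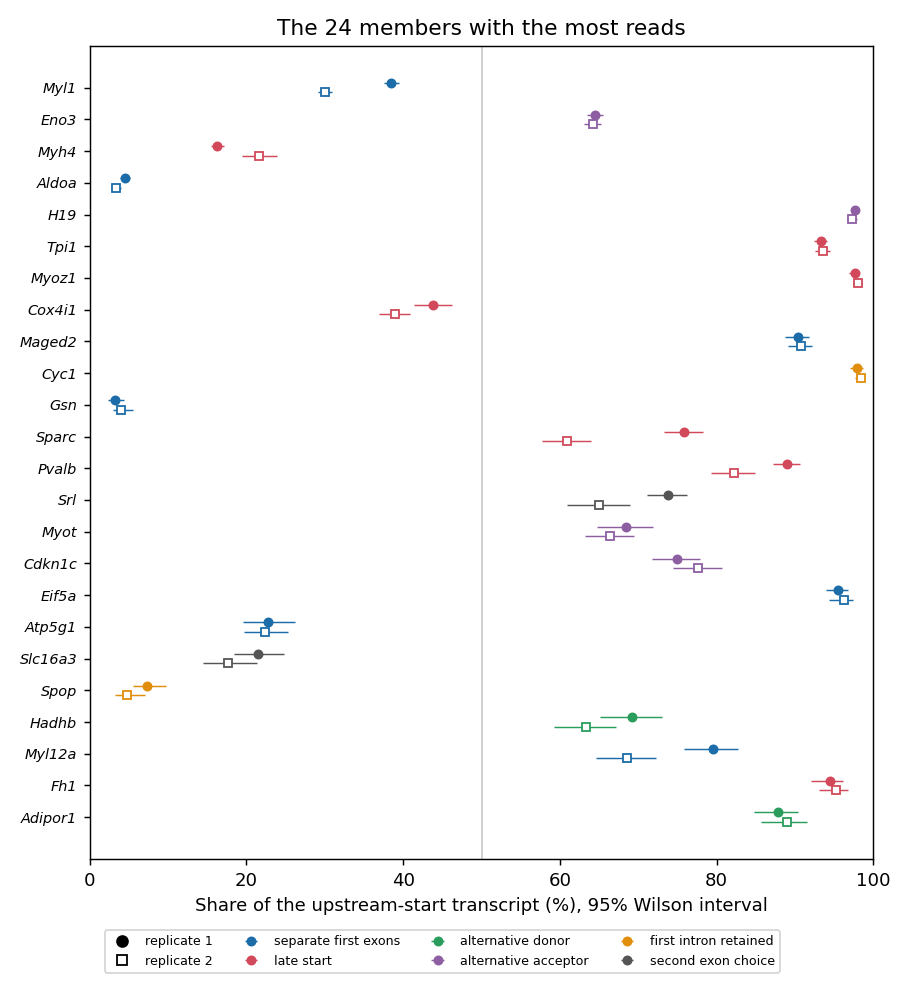
Share of the upstream-start transcript within the pair (horizontal axis, %) for the 24 members with the most pair reads, with replicate 1 as filled circles, replicate 2 as open squares, 95% Wilson intervals as bars and colours for the structure. Most libraries sit close together, while the intervals do not overlap in Sparc, Myl1, Myh4, Cox4i1, Pvalb, Srl and Myl12a.

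Over all 105 members the more abundant transcript of the pair held a median of 69.3% of the pair's reads. It held over 90% in 16 genes and under 60% in 25. The upstream transcript was the major one in 65 genes and the downstream one in 40. In 4 genes the annotated starts are the same, and the transcript with the earlier donor, or else the earlier acceptor, was called upstream. The starts lie under 100 nt apart in 41 genes, these 4 among them, so the count is not one of start choice. Among the 27 genes with separate first exons the upstream one was major in 12. The same transcript led in both libraries in 99 genes. The share differed between the libraries by a median of 4.00 points, by under 5 points in 65 genes and by 10 points or more in 14. The same median was 4.57 points in the 40 genes that passed the read limit and differ in the last intron only, and 3.32 points in the 58 that differ in internal introns only. Over all 1950 genes tested it was 2.43 points. Members just inside the read limit were Cyc1, R3hcc1 and Usp2, with 20 reads in the lowest of their 4 counts, and genes just outside were Aktip, Fastk and Hdlbp, with 19.

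The libraries were compared by Fisher's exact test, two-sided, on the reads of the pair by library, with the Benjamini-Hochberg adjustment over all 1950 genes that had 20 or more reads on their 2 leading transcripts in each library. The call required a difference of at least 10 points and an adjusted p under 0.05. This test compares these libraries and not conditions, and its p-values cover counting error only. It called 3 of the 105 members, where 0.256% of all genes tested were called. Of the 102 genes that passed the same read limit and are no members 1 was called, and of all 1845 other genes tested 2 were called (0.108%). The upstream share of Sparc was 14.9 points lower in replicate 2 (Fisher's exact test, adjusted p = 6.70e-10), that of Rcan1 28.6 points lower (Fisher's exact test, adjusted p = 1.26e-07) and that of Myl12a 10.9 points lower (Fisher's exact test, adjusted p = 0.0126). With replicate 1 thinned to the depth of replicate 2, Myl12a differed by 9.52 points and was no longer called (Fisher's exact test, adjusted p = 0.142). Without the limit on points, 6 members passed, where 0.41% of all genes did. The other 3 were muscle fibre genes: Myl1 differed by 8.46 points (Fisher's exact test, adjusted p = 8.39e-33), Pvalb by 6.76 (adjusted p = 0.0121 by Fisher's exact test) and Myh4, a fast myosin heavy chain gene, by 5.29 (adjusted p = 0.00179 by Fisher's exact test). Within the pair the upstream share was higher in replicate 1 in Myl1 and Pvalb and lower in Myh4. Over all models with either intron, Myh4 was at 63.9% and 65.8% (Fisher's exact test, adjusted over the members, p = 0.323). By the same test the adjusted p was 7.62e-34 for Myl1 and 0.000556 for Pvalb. These counts include the pair's own reads.

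**Figure D4:**
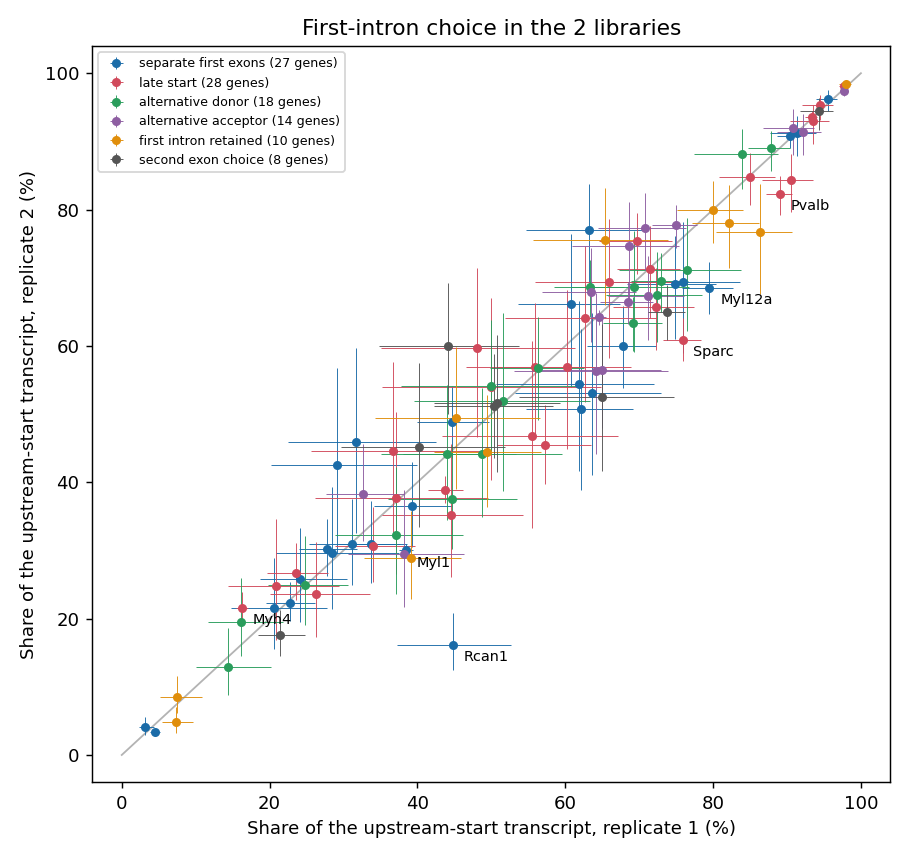
Share of the upstream-start transcript in replicate 1 (horizontal axis, %) and replicate 2 (vertical axis, %) for the 105 members, with 95% Wilson intervals and colours for the structure. Most points lie along the line of equal shares, and Rcan1, at 44.8% and 16.2%, lies farthest from it. The 6 genes with an adjusted p under 0.05 are named.

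Other genes had differences of 10 points or more that the test did not call. E2f6, a transcriptional repressor gene, was at 44.1% and 60.0%, Tsc22d3, a glucocorticoid-induced gene, at 63.2% and 77.0%, and Usp2, a deubiquitinase gene, at 29.1% and 42.6%. These shares rest on 102 and 95, 133 and 113, and 79 and 47 pair reads, and the intervals of the libraries overlapped in each gene. The transcript with more exonic sequence had the higher share in replicate 1 in 54 members and the lower share in 50.

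The lists of muscle and housekeeping functions held 22 of the members. Calcium and excitation genes gave 6 (Pvalb, Srl, Fxyd1, Cacnb1, Ank1 and Rcan1) of 7 on that list that passed the read limit, and glycolysis and energy genes gave 4 (Eno3, Aldoa, Tpi1 and Ugp2) of 5. Sarcomere and Z-disc genes gave 3 of 7, mitochondrial and fat oxidation genes 3 of 6, signalling genes 2 of 7, RNA-binding genes 1 of 5, translation genes 2 of 2 and matrix genes 1 of 2. Over all genes that passed, 105 of 207 were members. Of the genes listed for alternative promoters in muscle from background knowledge, 6 (Myl1, Eno3, Aldoa, Ank1, Rcan1 and Acsl1) of 9 that passed were members. Only Myl1, Aldoa, Rcan1 and Acsl1 of these have separate first exons. The Eno3 pair shares its first exon, and Ank1 is a late-start gene. The lists were chosen with earlier results of these data known, so these counts are a description. In the sarcomere list the 1 gene called was Smyd1, which is no member. Rcan1 was the 1 gene called in the calcium list and Sparc the 1 in the matrix list.

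Reads of models outside the pair were counted by the 2 first introns of the pair. In 29 members such models had 20 or more reads with either of these introns in each library. The intron could lie anywhere in the model, and a model with both counted for the one that came first. The leading intron was the same as in the pair in 21 of them and the other one in 8, and the shares differed by a median of 20.3 points. Incomplete models are among these, and in late-start genes one that begins late counts for the downstream intron. The counts therefore cannot show which first intron was chosen, and the part of incomplete models was not tested. Cdkn1c (76.5% and 75.7% in the other models), Eno3 (63.5% and 62.1%), Maged2 (89.6% and 89.9%), Myot (73.0% and 65.1%) and Myl1 (33.2% and 29.8%) lay close to their pair. Far from their pair lay Aldoa (64.7% and 63.3% upstream), Myoz1 (48.5% and 35.8%), Cyc1 (31.6% and 25.9%) and Hnrnpf (0.690% and 0.926%). Between the libraries none of the 29 differed by the call used for the pairs (Fisher's exact test, 0.0% called), and 2 had an unadjusted p under 0.05. Of the members called on their pair only Sparc was among the 29, as Rcan1 and Myl12a had too few such reads. Sparc was at 37.2% and 30.1% in its other models (Fisher's exact test, unadjusted p = 0.0309, adjusted p = 0.473). Counted over all models with either intron, which include the pair's own reads, the major intron turned in 3 members, Myh4, Slc29a1 and Hnrnpf.

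**Figure D5:**
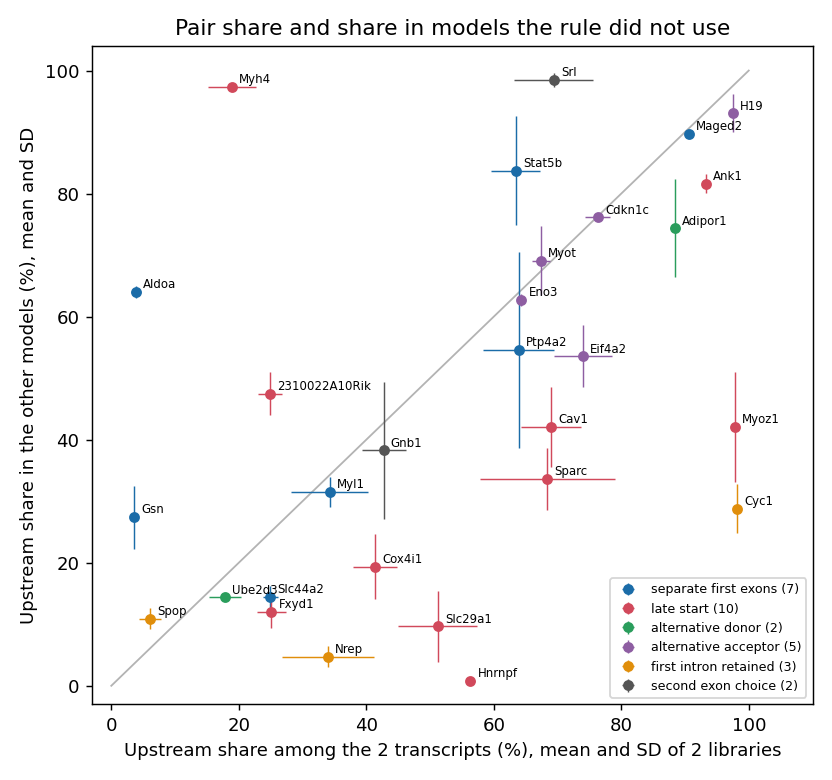
Upstream share within the pair (horizontal axis, %) and in models the rule did not use (vertical axis, %), as means with SD bars of 2 libraries, for the 29 members with enough such reads. Cdkn1c, Eno3, Myot and Myl1 lie near the line of equal shares, and Myh4, Aldoa, Myoz1 and Cyc1 lie far from it.

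The pair was not always the whole of a gene's choice. First introns were counted over spliced models, leaving out incomplete ones that match only part of an annotated chain. By this count 85 members had only the pair at 20 or more reads in each library. Another 20 had 3 or more first introns, up to 6. The percentages that follow are of the reads so counted, unless all models are named. In 5 genes another first intron had the most reads. In Aldoa it was chr7:126797777-126800001, with 61.4% and 52.0% of spliced reads in replicates 1 and 2. It begins between the first exons of the pair and joins the same second exon. In Myh4 it was chr11:67237834-67238030, with 9651 and 1721 reads, which is 56.4% and 54.3% of the 17121 and 3168 reads so counted. With incomplete models, Myh4 had 26740 and 8317 spliced reads. It begins upstream of both starts of the pair, and models that begin there also hold the first intron of Myh4-201 as a later intron. The upstream share of Myh4 was therefore 16.3% and 21.6% within the pair and 63.9% and 65.8% over all models with either intron. In Srl it was chr16:4493881-4522992, with 67.6% and 75.1%, which shares the donor of the pair and whose acceptor lies 3 nt from that of Srl-202. Pmp22, a myelin protein gene, used chr11:63129151-63133124 for 45.2% and 47.0%, which joins the upstream first exon to the acceptor of the downstream one. Slc29a1, a nucleoside transporter gene, used chr17:45593433-45595481 for 47.3% and 49.4%. These 5 introns belong to unannotated models.

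Of 33 further first introns that passed the read limit, 10 belonged mainly to annotated transcripts and 23 to unannotated models. With incomplete models left out as before, the annotated ones include the first intron of Eno3-206 (10.4% and 8.61% of Eno3 spliced reads) and that of Fxyd1-203 (12.1% and 12.5%). In Cdkn1c an unannotated intron that ends 3 nt from an acceptor of the pair held 18.8% and 20.8%. It had 426 and 422 reads without incomplete models, against 435 and 365 for the first intron of Cdkn1c-202 over all models, incomplete ones included. Incomplete models that match only the 3' part of an annotated chain took a median of 2.85% of all spliced reads of members, here with incomplete models included. In late-start genes they took a median of 2.28% in replicate 1 and 1.72% in replicate 2, and more in replicate 2 in 10 of the 28. They took 50.4% and 61.5% at Myh2, 35.6% and 61.7% at Myh4, 33.6% and 31.0% at Hnrnpf, and 22.5% and 23.4% at Sparc. The whole-gene level of Myh4 was 23388 and 8871 CPM in replicates 1 and 2, and the part of either in its pair share was not tested. Of the members, 8 overlap another gene on the same strand and 40 a gene on the other strand, where reads of the partner could enter the count.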

How the data were processed

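Long-read libraries of total RNA from gastrocnemius were analysed. The deposited tables give raw counts, reads per transcript model, with no normalization and only models with 1 or more reads. Per the labels, the assembly is mm10; the annotation files carry TALON attributes and match GENCODE M21 exons for all 210 transcripts of the pairs. Which aligner was run is not given in the sources used here. Replicates 1 and 2 cite different versions of the pipeline document, which cannot be told apart from the animal.

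Exon positions in the deposited annotations are genome coordinates. First introns were read by strand, shares were computed per library with 95% Wilson intervals, and CPM used mouse reads without spike-ins. Depth was 1145490 and 941841 mouse reads; intervals cover counting error only. Fisher's exact test used scipy 1.17.1 with numpy 2.4.6 and pandas 2.3.3 in Python 3.11.15; figures used matplotlib 3.10.9. On simulated reads of the same 1950 genes its calls took in 102 of 200 genes shifted by 20 points and 0 of 1750 unshifted ones. Of the shifted members 11 of 13 were recovered. The simulated reads held counting error only, so they cannot show how often 2 libraries differ through animals or preparation. Alternative scaling was done in R 4.3.3 with DESeq2 1.42.0 and edgeR 4.0.16.

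The members and lists were chosen with earlier results of these data known. Genes were named by a rule: the 20 members with most pair reads, those in a functional list, the 10 largest differences between libraries, the 5 widest and 5 narrowest start gaps, the 5 most even and 5 most one-sided pairs, and called members. Others were named after their values were seen. Some items are not reported here.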

Additional observations from a re-analysis of the deposited data

How the results depend on the processing

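The number of members was 105 at a limit of 20 reads, 224 at 10 and 40 at 50, and ranged from 122 to 143 when 1 library alone had to pass. Leaving the last introns free, or taking any 2 transcripts that passed, gave 109 members each. Of all genes tested, 5 were called, against 8 with no limit on points, 8 at 5 points, 3 at 20 points and 3 with 100 reads on the pair, and 4 with replicate 1 thinned to the depth of replicate 2. Members called numbered 3, against 6 with no limit, 6 at 5 points, 1 (Rcan1) at 20 points and 2 (Sparc and Rcan1) with replicate 1 thinned. The median upstream share was 58.1% and 54.5% in models other than the pair, where fewer genes gave a value. With reads of models outside the pair that held either intron at any place, 9 of 46 named members with such reads had the other intron as the major one. The value moved by more than its SD in 37. Among named members the major intron, counted in the same way, turned in Myh4 and Slc29a1 over all models, and in Stau1 over annotated transcripts. The summed level of members was 92688 CPM, and 62609 CPM over annotated-transcript reads only, which leaves out their other models; single libraries gave 87841 and 97536 CPM, and scaling by TMM or DESeq2 size factors gave 92651 and 92664 CPM. No paired analysis was possible because both libraries belong to 1 group. Depth limits genes with few reads: R3hcc1, with 40 pair reads in replicate 1, had a 95% interval of 35.2 to 64.8.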
